A study of Mus musculus with 12 samples.

Results

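The genes of cholesterol and fatty acid synthesis that are under the control of the sterol regulatory element-binding proteins (SREBPs) were examined in mouse liver after a norUDCA diet. The set held 40 genes of the 35275 in the deposited count table, taken by gene symbol. Of these, 19 formed the sterol branch (acetyl-CoA to cholesterol, plus 1 sterol carrier), 15 the fatty acid branch, and 6 were regulators. All 40 symbols were found once each, and 39 were abundant enough to test. The exception was Pnpla5, a lipase gene with 0 to 2 counts per norUDCA library and 1 to 9 per chow library.

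Livers came from male C57Bl/6J mice of 13 weeks of age that had eaten a diet with 0.5% norUDCA or plain chow for 1 week. NorUDCA (norursodeoxycholic acid) is a bile acid (BA) like ursodeoxycholic acid with a shorter side chain. Each diet had 6 liver RNA-Seq libraries, norUDCA 9, 10, 11, 12, 13 and 20 and chow 2, 3, 7, 8, 16 and 17. Mice of both diets were of the same strain, sex and age. All library titles carry the tag WT, for wild type, and the labels name no other allele or agent. They also do not say whether each library is a separate animal, so the p-values measure the spread between libraries.

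SREBPs are made as membrane proteins of the endoplasmic reticulum. When membrane cholesterol is low, the escort protein Scap carries them to the Golgi, where proteases free the part that enters the nucleus and switches on its target genes. When sterols are plentiful, Insig1 and Insig2 hold Scap back. In liver, the product of Srebf2 mainly drives cholesterol synthesis. The Srebf1 product that predominates there is raised by insulin and by oxysterols acting through LXR, and it mainly drives fatty acid synthesis together with the glucose-responsive factor encoded by Mlxipl. BAs are made from cholesterol, so the sterol branch lies upstream of their synthesis.

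The promoters of 5 members are shown because the results below turn on these genes. Hsd17b7 and Tm7sf2 were the members called between the diets, Hmgcs1 and Idi1 are early sterol genes with their highest value in chow 2, as most of that branch had, and Fasn varied widely in the fatty acid branch. Each line gives the 250 bases before the gene start (RefSeq, GRCm38.p6), read 5′ to 3′ on the strand of the gene. The Hsd17b7 stretch is at chr1:169969206-169969455 on the minus strand, and that of Tm7sf2 is at chr19:6067851-6068100 on the minus strand. Hmgcs1 is at chr13:119690101-119690350 on the plus strand, Idi1 at chr13:8885356-8885605 on the plus strand, and Fasn at chr11:120824548-120824797 on the minus strand. The RefSeq starts used for these stretches differ from the gene starts in the deposited count table. The Tm7sf2 stretch lies wholly inside the gene as placed there, and the Hsd17b7 and Idi1 stretches lie partly inside theirs. Capitals mark matches on either strand to the sterol regulatory element letters TCACNCCAC, the CCAAT box and the E-box CACGTG.
Hsd17b7: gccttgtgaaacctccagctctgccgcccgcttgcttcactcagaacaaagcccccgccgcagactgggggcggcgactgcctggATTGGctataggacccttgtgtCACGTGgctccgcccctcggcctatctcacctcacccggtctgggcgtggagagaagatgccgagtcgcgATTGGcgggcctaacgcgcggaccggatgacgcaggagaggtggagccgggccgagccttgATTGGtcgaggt
Tm7sf2: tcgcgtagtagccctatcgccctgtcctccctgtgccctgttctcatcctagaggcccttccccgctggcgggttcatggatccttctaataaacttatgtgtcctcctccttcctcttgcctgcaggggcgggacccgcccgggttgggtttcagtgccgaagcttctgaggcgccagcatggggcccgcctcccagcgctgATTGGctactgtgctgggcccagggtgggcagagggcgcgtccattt
Hmgcs1: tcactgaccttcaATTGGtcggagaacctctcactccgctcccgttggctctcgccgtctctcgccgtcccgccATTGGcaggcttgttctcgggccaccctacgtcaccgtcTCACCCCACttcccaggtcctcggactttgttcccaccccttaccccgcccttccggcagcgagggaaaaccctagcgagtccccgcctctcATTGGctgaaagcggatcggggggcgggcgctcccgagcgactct
Idi1: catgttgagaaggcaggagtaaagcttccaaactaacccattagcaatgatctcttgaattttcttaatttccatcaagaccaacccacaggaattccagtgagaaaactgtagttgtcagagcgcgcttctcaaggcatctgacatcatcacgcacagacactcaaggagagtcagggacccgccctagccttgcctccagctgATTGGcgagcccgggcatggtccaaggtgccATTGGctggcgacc
Fasn: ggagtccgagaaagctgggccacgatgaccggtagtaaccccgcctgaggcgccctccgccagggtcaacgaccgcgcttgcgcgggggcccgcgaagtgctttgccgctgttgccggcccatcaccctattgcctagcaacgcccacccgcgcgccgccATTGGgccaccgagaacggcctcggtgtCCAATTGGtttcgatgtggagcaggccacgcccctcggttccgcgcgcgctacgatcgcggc

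RefSeq promoters were matched for 32 of the 40 members, 42 promoters in all, and were searched over the 250 bases before and 50 bases after each start. Dgat1, Dgat2, Fads1, Fdft1, Fdps, Scd1, Sqle and Stard4 were not matched. The letters TCACNCCAC were found in 2 of the 42 promoters, those of Hmgcs1 and of Mlxipl, against 1.24% of 32851 promoters in the genome. The match in Hmgcs1 begins 137 bases before its start. CCAAT, the box bound by NF-Y, was found in 14 of 18 sterol branch promoters (77.8%) and in 8 of 12 fatty acid branch promoters (66.7%), against 37.4% of all promoters. CACGTG was found in 9 of the 42 (21.4%), against 7.15% of all promoters, and Hsd17b7 has 1 such match 143 bases before its start. The overlapping promoters of Scap were both counted among these and hold the same CACGTG site. A match says only that the letters are there, and SREBPs also bind other variants of these letters that were not searched. None of the motifs overlaps another in these 5 sequences except for the pair of CCAAT matches on opposite strands in Fasn.

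Between the diets, 2 of the 39 tested members were called, 1 lower and 1 higher under norUDCA, and both belonged to the later sterol steps. Hsd17b7 was lower and Tm7sf2 was higher. No fatty acid branch member (0 of 14 tested) and no regulator (0 of 6) passed. Over all 12378 genes tested, 1900 (15.3%) were called at an adjusted p under 0.05 (edgeR quasi-likelihood test, Benjamini-Hochberg), 833 higher (6.73%) and 1067 lower (8.62%). The 5.13% called among the members was thus below the share over all genes. At an unadjusted p under 0.05 there were 7 of 39 members (17.9%), 4 in the sterol branch, 1 in the fatty acid branch and 2 regulators, against 30.0% of all genes. The median log2 fold change of the members was -0.03, beside a median near 0 (-0.0014) over all genes, and the median absolute log2 change was 0.14 for the members and 0.18 for all genes. With scaling by total counts instead of TMM, all genes moved up by a median of 0.15 on the log2 scale, and 2434 genes were called higher and 565 lower. DESeq2 called 5 members, adding Insig1, Insig2 and Pnpla3. Leaving out chow 7 or chow 8 took the Tm7sf2 call away and left 1 sterol branch member called, whereas leaving out chow 3 gave 3 called members in the fatty acid branch (Acaca, Acss2 and Pnpla3) and 1 regulator (Insig1). Leaving out chow 2 added Acat2, and leaving out norUDCA 12 added Insig2.

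**Figure D1:**
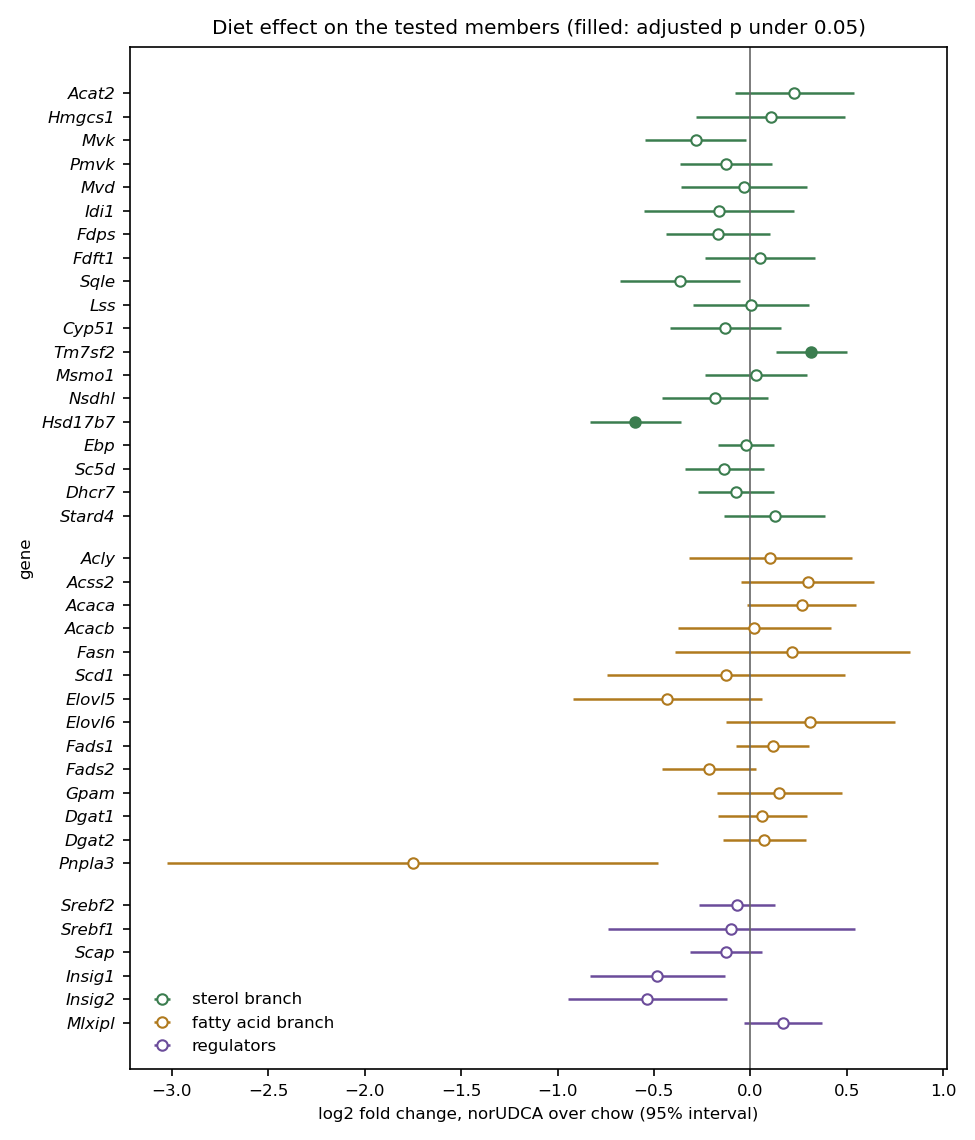
Log2 fold change of each of the 39 tested members, norUDCA over chow (x axis), with its 95% interval, by branch from top to bottom. Filled points are the 2 members called at an adjusted p under 0.05, Hsd17b7 to the left of 0 and Tm7sf2 to the right; of the other members only Mvk, Sqle, Pnpla3, Insig1 and Insig2 have intervals that leave out 0.

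Values are given below as CPM, the counts of a gene relative to the TMM-adjusted size of its library, which compare libraries for 1 gene but not genes with each other. Hsd17b7 (ENSMUSG00000026675, chromosome 1, 169949535 to 169969241 in the deposited table) encodes the reductase that restores the hydroxyl group of the sterol ring during the removal of some of its methyl groups. It had a lowest, median and highest value of 76.9, 89.8 and 116 CPM in the norUDCA libraries, against 119, 136 and 169 CPM in the chow libraries. All 6 norUDCA libraries were below all 6 chow libraries, which was so in either direction for 7.66% of all genes tested and for no other member. The log2 fold change was -0.60 (SE 0.11, edgeR adjusted p = 0.00251), or 0.661-fold. It was called in each of the 20 alternatives, with adjusted p between 2.15e-05 and 0.00836. Chow 2 was the highest library and norUDCA 12 the lowest.

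Tm7sf2 (ENSMUSG00000024799, chromosome 19, 6062821 to 6068373 in the deposited table) encodes a sterol reductase that acts just after the demethylase Cyp51. It had 196, 213 and 219 CPM (lowest, median, highest) in the norUDCA libraries, against 145, 165 and 201 CPM in the chow libraries. The diets overlapped by 1 norUDCA library, norUDCA 9 at 196 CPM, which lay below chow 17 at 201 CPM. The log2 fold change was 0.31 (SE 0.09, edgeR adjusted p = 0.0233), or 1.24-fold, and 18 of the 20 alternatives kept the call. Without chow 7 the adjusted p was 0.0594 and without chow 8 it was 0.0581. In the reference annotation (GENCODE M21), 12.1% of the exon bases of Tm7sf2 are also exon bases of Vps51 on the same strand, and reads there cannot be told apart.

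**Figure D2:**
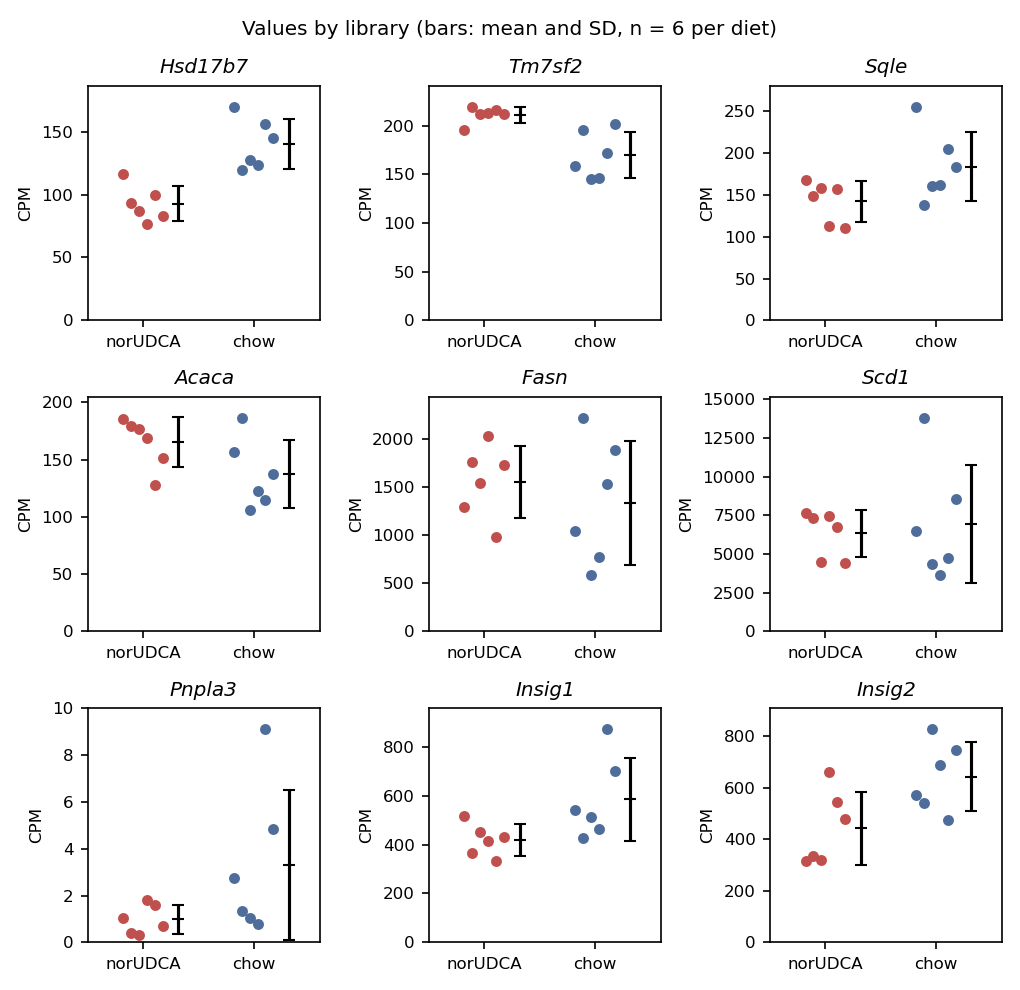
CPM by library (y axis, from 0) for 9 members in norUDCA and chow livers, 1 point per library, with the mean and SD of each diet beside the points (n = 6 each). Hsd17b7 libraries of the diets do not overlap (76.9 to 116 CPM under norUDCA, 119 to 169 CPM under chow), and the chow points of Fasn and Scd1 spread more widely than the norUDCA points.

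In the mevalonate and isoprenoid steps, none of 7 genes was called. These enzymes join acetyl-CoA units into HMG-CoA and mevalonate and turn mevalonate into farnesyl diphosphate. Acat2, the cytosolic thiolase of the first step, had 78.6, 89.9 and 99.7 CPM (lowest, median, highest) under norUDCA, against 53.3, 76.7 and 112 CPM under chow. All norUDCA libraries lay within the chow range. Its log2 fold change of 0.23 (SE 0.14) had an adjusted p of 0.320 (edgeR), and 0.0432 when chow 2, its highest library, was left out. Acat2 has a near copy, Acat3, with 1947 to 2358 counts under norUDCA and 1020 to 1595 under chow, so the split of reads between them is uncertain.

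Hmgcs1, the cytosolic HMG-CoA synthase, had 431, 655 and 761 CPM under norUDCA, against 449, 518 and 897 CPM under chow. Idi1, which interconverts the isoprene units isopentenyl and dimethylallyl diphosphate, had 80.9, 111 and 124 CPM under norUDCA, against 83.2, 104 and 194 CPM under chow. For both genes the highest library was chow 2 and the lowest was norUDCA 20, and the log2 fold changes were 0.10 (SE 0.18) for Hmgcs1 and -0.16 (SE 0.18) for Idi1. In this group Mvk, mevalonate kinase, had the smallest p of the test, with a log2 fold change of -0.28 (SE 0.12, edgeR adjusted p = 0.133).

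Of the 11 genes from squalene to cholesterol, 9 were not called. Sqle, squalene epoxidase and a rate-controlling enzyme of the pathway, had 111, 153 and 168 CPM under norUDCA, against 138, 173 and 255 CPM under chow. The diets overlapped, and the log2 fold change was -0.37 (SE 0.15, edgeR adjusted p = 0.107). The adjusted p of Sqle stayed between 0.0506 and 0.283 in the alternatives. Fdft1, squalene synthase, had 156, 193 and 213 CPM under norUDCA, against 136, 173 and 232 CPM under chow. Cyp51, the lanosterol demethylase, had 225, 273 and 307 CPM under norUDCA, against 235, 278 and 394 CPM under chow. The diets overlapped in both genes, with log2 fold changes of 0.05 (SE 0.13) for Fdft1 and -0.13 (SE 0.13) for Cyp51. Exons of Fdft1 share 18.3% of their bases with Ctsb on the opposite strand, and the sources used here do not say whether counting used strand.

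The other 11 sterol branch members were Mvk, Pmvk, Mvd, Fdps, Lss, Msmo1, Nsdhl, Ebp, Sc5d, Dhcr7 and Stard4. Their values ran from 26.7 to 600.5 CPM over all libraries. Their log2 fold changes ran from -0.28 in Mvk to 0.13 in Stard4, a cytosolic sterol carrier, with adjusted p between 0.133 and 0.995. Among these, Ebp, the sterol isomerase, was held most narrowly, with a log2 fold change of -0.03 and a 95% interval of -0.17 to 0.12. The interval of Dhcr7, a reductase of the last steps, was -0.27 to 0.12. The interval of Hmgcs1 was wider, from -0.28 to 0.49.

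In the fatty acid branch, the 5 genes from acetyl-CoA to palmitate all had log2 fold changes above 0, between 0.02 and 0.30, and none was called. The smallest, that of Acacb, turned below 0 when any 1 of 6 libraries was left out. Acss2, which makes cytosolic acetyl-CoA from acetate, had 221, 287 and 317 CPM under norUDCA, against 157, 211 and 358 CPM under chow. Its log2 fold change was 0.30 (SE 0.16, edgeR adjusted p = 0.243), and 0.47 with an adjusted p of 0.0148 without chow 3. Acly, which makes cytosolic acetyl-CoA from citrate, had 401, 453 and 490 CPM under norUDCA, against 268, 353 and 748 CPM under chow. The highest and the lowest Acly libraries were both chow, chow 3 and chow 7.

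Acaca, the cytosolic acetyl-CoA carboxylase that makes the malonyl-CoA for synthesis, had 128, 173 and 186 CPM under norUDCA, against 106, 130 and 186 CPM under chow. Its log2 fold change was 0.27 (SE 0.13, edgeR adjusted p = 0.196). It was called when chow 3 was left out (0.37, adjusted p = 0.0396) and with scaling by total counts (0.42, adjusted p = 0.0330). Fasn, fatty acid synthase, had 975, 1631 and 2033 CPM under norUDCA, against 583, 1286 and 2213 CPM under chow. Every norUDCA library lay inside the chow range, and the log2 fold change of 0.22 had a 95% interval of -0.39 to 0.83. With this spread between libraries, the Fasn values do not exclude, at the 95% level, any difference inside that interval, in either direction.

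Among the elongases and desaturases, none of 5 was called. Scd1, the desaturase that makes oleate and palmitoleate, had 4388, 7062 and 7637 CPM under norUDCA, against 3642, 5621 and 13768 CPM under chow. Chow 3 alone gave the top chow value, and the log2 fold change of -0.13 (95% interval -0.74 to 0.49) was 0.19 without it. Scd2, a near copy of Scd1, had 62 to 265 counts under norUDCA and 53 to 120 under chow. Elovl5, which lengthens polyunsaturated fatty acids, had 295, 353 and 560 CPM under norUDCA, against 278, 492 and 816 CPM under chow. Elovl6, which lengthens palmitate to stearate, had 119, 160 and 284 CPM under norUDCA, against 106, 129 and 221 CPM under chow. The diets overlapped in both, and the log2 fold changes were -0.43 (SE 0.23) for Elovl5 and 0.31 (SE 0.21) for Elovl6. Fads1, a desaturase of polyunsaturated fatty acids, varied little under norUDCA, at 439, 452 and 464 CPM, against 336, 411 and 501 CPM under chow. It was called with scaling by total counts (adjusted p = 0.0311) and otherwise not (0.413 in the edgeR fit with TMM).

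In glycerolipid assembly, Gpam, the first acyltransferase of triglyceride synthesis, had 165, 200 and 229 CPM under norUDCA, against 131, 171 and 256 CPM under chow. Dgat2, an acyltransferase of the last step, had 428, 519 and 642 CPM under norUDCA, against 460, 485 and 574 CPM under chow. Both overlapped between the diets, with log2 fold changes of 0.15 (SE 0.15) for Gpam and 0.07 (SE 0.10) for Dgat2. Pnpla3, a lipid droplet protein whose gene is a known SREBP target, had the largest fitted change of the set at very low counts. It had 0.321, 0.863 and 1.82 CPM under norUDCA, against 0.770, 2.05 and 9.09 CPM under chow. Chow 16 at 9.09 CPM and chow 17 at 4.83 CPM were the highest, followed by chow 2 at 2.76 CPM, and the other 3 chow libraries lay within the norUDCA range. The log2 fold change was -1.75 (SE 0.60, edgeR adjusted p = 0.0615). Pnpla3 was called by DESeq2 (adjusted p = 0.0186) and without chow 3, chow 7 or chow 8 (lowest adjusted p = 0.0400). The remaining members Acacb, Fads2 and Dgat1 had log2 fold changes between -0.22 and 0.06 and adjusted p of 0.226 or more.

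Of the regulators, Srebf2 and Scap were close between the diets. Srebf2 had 63.1, 70.9 and 85.2 CPM under norUDCA, against 64.2, 75.2 and 92.8 CPM under chow, with a log2 fold change of -0.07 and a 95% interval of -0.27 to 0.13. Scap had 119, 126 and 153 CPM under norUDCA, against 121, 136 and 164 CPM under chow, with an interval of -0.31 to 0.06. Srebf1 varied more than either. It had 145, 245 and 335 CPM under norUDCA, against 118, 240 and 453 CPM under chow, and its interval ran from -0.74 to 0.54. The counts do not separate the transcripts of Srebf1 that start from different promoters.

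Insig1 and Insig2 both had log2 fold changes below 0 that missed the threshold. Insig1, itself a target of SREBPs, had 334, 424 and 515 CPM under norUDCA, against 426, 526 and 871 CPM under chow. Its log2 fold change was -0.48 (SE 0.16, edgeR adjusted p = 0.0612). Chow 16 and chow 17 were its highest libraries, as for Pnpla3, and it was called without chow 3 (adjusted p = 0.0290) and by DESeq2 (0.0359). Insig2 had 317, 407 and 660 CPM under norUDCA, against 477, 629 and 826 CPM under chow. In liver, Insig2 has a transcript that insulin lowers. Its log2 fold change was -0.53 (SE 0.19, edgeR adjusted p = 0.0773), with norUDCA 9, 10 and 11 below all chow libraries and norUDCA 12, 13 and 20 inside the chow range. Insig2 was called without norUDCA 12 (adjusted p = 0.0263), by DESeq2 (0.0459) and by limma-voom with sample weights (0.0320). Mlxipl, the gene of ChREBP, had 310, 361 and 429 CPM under norUDCA, against 272, 335 and 358 CPM under chow (log2 fold change 0.17, SE 0.09, adjusted p = 0.260), and was called with scaling by total counts alone (0.0318).

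Levels of different genes were compared per kilobase of the gene length in the deposited table. Scd1 had the highest mean level, 1313 CPM per kb under norUDCA and 1433 under chow. In the sterol branch Fdps, farnesyl diphosphate synthase, led with 321 CPM per kb under norUDCA and 361 under chow, and Lss, lanosterol synthase, was lowest with 12.7 under each diet. In GENCODE M21, 26.7% of the exon bases of Fdps are also exon bases of Gm43738 on the same strand, a gene absent from the deposited count table. Insig2 had 164 CPM per kb under norUDCA and 238 under chow, close to Insig1 with 155 under norUDCA and 217 under chow. Srebf1 was above Srebf2, with 56.2 against 14.5 CPM per kb within the norUDCA libraries and 60.2 against 15.2 within the chow libraries. Pnpla3 was near the floor of detection, at 0.211 under norUDCA and 0.712 under chow.

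The branches were then compared in each library. A branch score was the mean over its tested genes of log2 CPM, with each gene centred on its mean over the 12 libraries, so a score of 0.30 means that the genes of the branch averaged 0.30 log2 units above their usual level. The sterol score was -0.03 ± 0.14 under norUDCA and 0.03 ± 0.24 under chow (SD, n = 6 each). The fatty acid score was -0.00011 ± 0.13 under norUDCA and 0.00011 ± 0.35 under chow. The diets thus differed by -0.06 in the sterol score and by -0.00023 in the fatty acid score, both inside 1 SD of the libraries of either diet; as descriptions of chosen genes, these scores carry no test. The sterol difference was 0.09 with scaling by total counts and 0.0095 without chow 2. The fatty acid difference was 0.15 with scaling by total counts, 0.10 without chow 3 and -0.08 without chow 7. Its mean held 10 of 14 genes with a log2 fold change above 0 beside Pnpla3 at -1.75, and the median over the genes in place of the mean gave 0.14.

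The libraries that stood at the ends differed between the branches. In the sterol branch chow 2 had the highest score, 0.39, and it held the highest value of all 12 libraries for 14 of 19 genes. NorUDCA 20 had the lowest, -0.27, and held the lowest value for 12 of 19 genes. In the fatty acid branch chow 3 was the highest, 0.48, with the top value for 8 of 14 genes, while chow 2 stood at 0.03 and norUDCA 20 at -0.09. Chow 7 and chow 8 were low in both, with -0.20 each in the sterol branch and -0.40 and -0.39 in the fatty acid branch. The sterol minus fatty acid difference ran from -0.28 in norUDCA 12 to 0.23 in norUDCA 11, against -0.56 in chow 3 to 0.36 in chow 2.

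**Figure D3:**
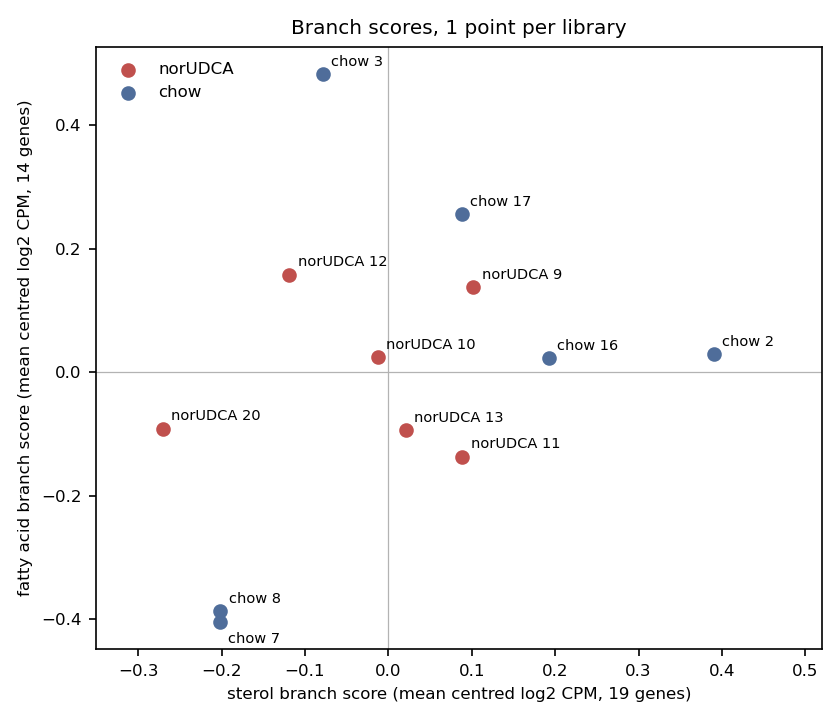
Sterol branch score (x axis) against fatty acid branch score (y axis), both in log2 units, 1 point per library, for norUDCA and chow. Chow 2 lies farthest right at 0.39, chow 3 highest at 0.48, and chow 7 and chow 8 at the bottom left, while the 6 norUDCA libraries lie between -0.14 and 0.16 on the y axis.

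Within the branches the same libraries stood out. In the mevalonate and isoprenoid steps norUDCA 20 was at -0.36 and chow 2 at 0.56. In the steps from acetyl-CoA to palmitate chow 3 reached 0.61 and chow 7 was at -0.65, a range of 1.26 among chow libraries, against 0.29 among norUDCA libraries. Elongation and desaturation had chow 3 at 0.59 and chow 8 at -0.47. In glycerolipid assembly the order changed, and chow 16 at 0.58 and chow 17 at 0.47 were the highest, with Pnpla3 as 1 of its 4 tested genes. Tm7sf2 and Stard4 were the sterol branch genes that were higher in norUDCA 20 than in chow 2. Tm7sf2 had 213 CPM in norUDCA 20 and 159 CPM in chow 2, and Stard4 had 219 CPM in norUDCA 20 and 173 CPM in chow 2, whereas Idi1 had 80.9 CPM in norUDCA 20 and 194 CPM in chow 2.

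**Figure D4:**
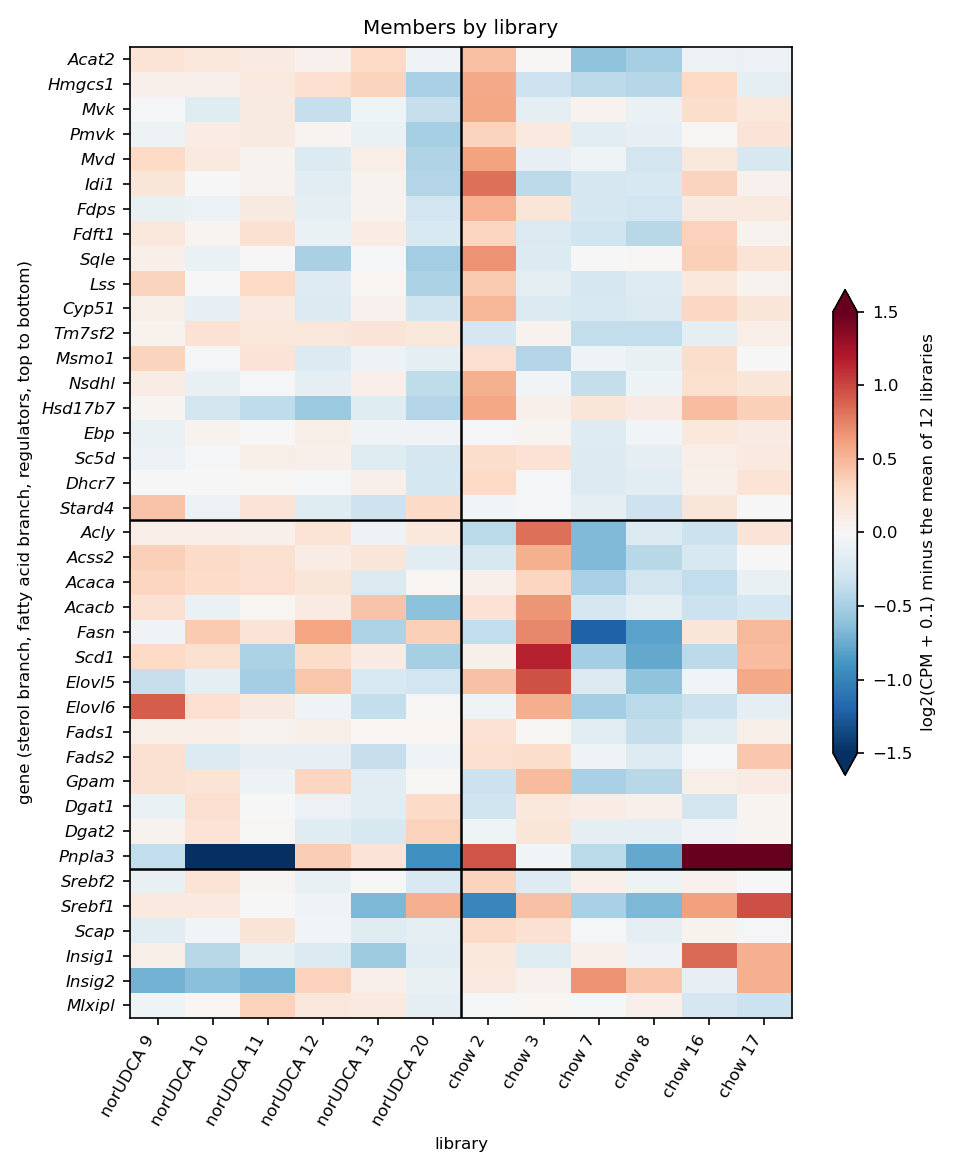
Each tested member (rows, sterol branch, fatty acid branch and regulators from top to bottom) in each library (columns, norUDCA left of chow). Colour gives the log2 distance from the mean of the gene over the 12 libraries. Chow 2 is red through most of the sterol branch and chow 3 through much of the fatty acid branch. Chow 7 and chow 8 are blue through most of both, though not for Hsd17b7 or Dgat1.

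The chow libraries varied more than the norUDCA libraries for 31 of 39 members (79.5%), beside 60.3% of all genes tested. The median SD of log2 CPM was 0.20 under norUDCA and 0.30 under chow for the members, and 0.20 and 0.24 for all genes. In the 14 fatty acid genes it was 0.21 under norUDCA and 0.38 under chow, and in the 19 sterol genes it was 0.19 under norUDCA and 0.27 under chow. Stard4, Lss, Pmvk and Hsd17b7 were the sterol genes that varied more under norUDCA. Total counts were 14065837 to 15342922 in the norUDCA libraries and 12209706 to 13715026 in the chow libraries, and the part of this difference in the spread was not tested.

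The wider pathway was given by lists of other genes. Of 9 genes of SREBP processing and turnover, 2 were higher under norUDCA. These were Rnf139 (log2 fold change 0.38, SE 0.08, edgeR adjusted p = 0.00720) and Erlin2 (0.33, SE 0.08, adjusted p = 0.0110), whose products act in turnover of sterol-regulated proteins at the endoplasmic reticulum. Of 19 other lipogenic genes 1 was lower. That was Elovl3, an elongase of long saturated chains, with 74.7, 112 and 245 CPM under norUDCA, against 266, 339 and 422 CPM under chow (log2 fold change -1.38, SE 0.24, edgeR adjusted p = 0.00156). Every norUDCA library was below every chow library for Elovl3. In the same list Agpat2, an acyltransferase of phosphatidic acid synthesis, came next by p at a log2 fold change of -0.30 and an edgeR adjusted p of 0.0531.

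Of 12 tested genes of sterol esters, isoprenoids and oxysterols, 1 was higher and 2 were lower. Npc1, which moves cholesterol out of lysosomes, had 110, 145 and 184 CPM under norUDCA, against 77.8, 94.5 and 110 CPM under chow (log2 fold change 0.67, SE 0.13, edgeR adjusted p = 0.00310). Dhdds and Nus1, the subunits of the enzyme that makes the dolichol chain from farnesyl diphosphate, were lower, by log2 fold changes of -0.28 (SE 0.09, adjusted p = 0.0412) and -0.23 (SE 0.07, adjusted p = 0.0321). Of 6 genes for DNA-binding partners of SREBPs, Usf1 was higher (0.34, SE 0.10, edgeR adjusted p = 0.0279). The share called in each of these lists can be set beside the 15.3% over all genes: 22.2%, 5.26%, 25.0% and 16.7% in the order given here.

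Feeding state and time of day act on this pathway, and both kinds of genes were looked at. None of 6 fed-state genes was called. Of 9 tested fasting genes, Cyp4a14 was higher under norUDCA and Igfbp1 was lower, with log2 fold changes of 3.61 (SE 0.47, edgeR adjusted p = 0.000181) and -1.38 (SE 0.28, adjusted p = 0.00405). Of 11 tested clock genes, Dbp, Per3 and Tef were higher and Clock was lower. The share called was 22.2% of the tested fasting genes and 36.4% of the tested clock genes, beside 15.3% of all genes tested. Dbp stood at 1.93 on the log2 scale (SE 0.36, edgeR adjusted p = 0.00270) and Clock, a subunit of the core clock activator, at -0.61 (SE 0.10, adjusted p = 0.00108). The hour of tissue collection and the feeding state are not given in the labels, and the part of these in the members' values was not tested.

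Markers of liver cell types, red blood cells and adipocytes were also compared between the diets. Of 7 macrophage and Kupffer cell markers 5 were lower under norUDCA (Vsig4, Adgre1, Clec4f, Cd5l and Csf1r), with a summed level of 74.2 to 166 CPM under norUDCA and 128 to 307 under chow. Of 5 tested cholangiocyte markers, Sox9 and Spp1 were lower (sum 32.8 to 41.5 CPM under norUDCA, 33.0 to 103 under chow). Most of that sum was Spp1, with 26.8 to 31.7 CPM under norUDCA and 23.5 to 90.9 under chow. The duct keratins and Epcam were low and not called, with log2 fold changes of 0.31 for Krt19, -0.09 for Krt7 and 0.16 for Epcam. Of 8 stellate cell and fibroblast markers, Reln and Col1a1 were higher (156 to 222 CPM under norUDCA, 119 to 209 under chow). None of 7 endothelial markers was called, and 1 of 5 red blood cell markers, Alas2, was lower. Hepatocyte markers summed to 70547 to 83179 CPM under norUDCA and 64980 to 88890 under chow, with 1 of 8 higher (Apoa2) and 2 lower (Apoa1 and Serpina1a). Adipocytes also use the fatty acid branch, and their markers summed to 0.628 to 3.90 CPM under norUDCA and 1.45 to 7.87 under chow, with the highest value in chow 17 and 3.79 CPM in chow 3. No list had a marker at 0 in all 12 libraries. In these whole-tissue samples fewer cells of a type and less RNA per cell cannot be told apart, and the part of cell makeup in the values was not tested. Chow 2, the top library of the sterol branch, also had the most Saa1, an acute-phase gene chosen here after its values were seen. Saa1 stood at 9776 CPM in chow 2, against 32.3 to 567 CPM in the norUDCA libraries and 526 to 4114 in the other chow libraries. Chow 7 was next in Saa1 with 4114 CPM and had the lowest sterol score of the chow libraries, -0.20. Chow 16 was next in the sterol score at 0.19 and had 567 CPM of Saa1. A link between Saa1 and the sterol score was not tested.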

How the data were processed

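The counts are the authors' raw read counts per gene, deposited for all 12 libraries. Per the labels, RNA was extracted from frozen liver with TRIzol, libraries followed the NEBNext method, and the processing notes name CASAVA, STAR and DESeq2. Versions of these tools, genome build, annotation and strand setting: not given in the sources used here. All 40 members overlapped their GENCODE M21 (GRCm38) position, 21 with the same start and end. Other deposited tables hold the authors' fold changes and p-values between groups and were not used.

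Counts were tested with edgeR 4.0.16 (R 4.3.3): filterByExpr, TMM and the quasi-likelihood F test of norUDCA over chow, without covariates. P-values were adjusted by Benjamini-Hochberg over 12378 genes, and a gene was called under 0.05. CPM used TMM library sizes, with a prior count of 2 for log2 values. The script was tested on simulated counts. Alternatives were 3 other scalings, TMM without the 50 most abundant genes, no filter, DESeq2 1.42.0, limma-voom (limma 3.58.1) with and without sample weights, and each library left out. The members and lists were chosen with earlier results of these data known. Values by library are given for called members, members whose libraries do not overlap or whose call changed, 10 members picked whatever their values, and the 3 most variable of each subgroup; other lists are given by counts, with up to 3 genes of the smallest p named. Tef, Cd5l, Csf1r, Krt7, Epcam and Saa1 were named after their values were seen. Gene symbols of 2 list genes (Adgre1 and Hacd3) were matched by identifier. Intervals and limits cover the spread between libraries, which is set by 6 libraries per diet.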

Additional observations from a re-analysis of the deposited data

Results flagged for a closer look

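Values that stood far from the other libraries of their diet (Dixon's test, 6 libraries per group) were found in 6 of the 84 groups looked at, where chance gives about 5% (4.2 groups). Under norUDCA, these were Tm7sf2 in norUDCA 9, at 196 CPM with the next lowest library at 212 CPM, and Dhcr7 in norUDCA 20, at 146 CPM with the next lowest at 172 CPM. Elovl5 in norUDCA 12 had 560 CPM with the next highest library at 380 CPM. Elovl6 in norUDCA 9 had 284 CPM with the next highest at 180.0 CPM, and Scap in norUDCA 11 had 153 CPM with the next highest at 130 CPM. Under chow, Elovl6 in chow 3 had 221 CPM with the next highest at 144 CPM. The low Tm7sf2 value in norUDCA 9 is the one that made the diets overlap for that gene. Without chow 3 Elovl6 had its lowest adjusted p of all alternatives, 0.0796 (edgeR), and was not called.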

How the results depend on the processing

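Of 780 values of single members under the alternatives, 721 kept their direction and their side of the threshold, 15 passed it newly, 2 no longer passed and 42 changed sign. All that changed sign belonged to members that were not called. With scaling by total counts, 2999 genes, 2 fatty acid branch members and 1 regulator were called. With DESeq2, 1 fatty acid branch member and 2 regulators were called, and with limma-voom with sample weights 1 regulator. On leaving out 1 library at a time, 1 to 3 sterol branch members, 0 to 3 fatty acid branch members and 0 to 1 regulators were called. Sign changes with scaling by total counts were Pmvk (log2 fold change 0.025), Mvd (0.119), Cyp51 (0.022), Ebp (0.125), Sc5d (0.016), Dhcr7 (0.077), Scd1 (0.020), Srebf2 (0.084), Srebf1 (0.045) and Scap (0.027), all less than the median shift of 0.149 of all genes under that scaling. Upper quartile scaling turned Ebp (0.0045). Limma-voom turned Lss (-0.0061) and Srebf1 (0.038), and with sample weights Mvd (0.068), Idi1 (0.002), Scd1 (0.085) and Srebf1 (0.031). With 1 library left out, the log2 fold change ran from -0.089 to 0.109 in Mvd, -0.246 to 0.030 in Idi1, -0.024 to 0.131 in Fdft1, -0.053 to 0.098 in Lss, -0.045 to 0.090 in Msmo1, -0.061 to 0.0073 in Ebp, -0.056 to 0.192 in Acacb, -0.256 to 0.192 in Scd1 and -0.249 to 0.138 in Srebf1. The causes were not tested. The branch score differences moved by less than the SD pooled over the diets under each alternative. They moved by more than the narrower norUDCA SD with scaling by total counts. The sterol difference then went from -0.06 to 0.09 and the fatty acid difference from -0.00023 to 0.15. The fatty acid difference also moved by more than that SD with the median in place of the mean. The median gave 0.14 for the fatty acid score and -0.23 for the sterol minus fatty acid difference. No paired analysis was possible because the diets share no replicate numbers. Low counts limit Pnpla3 and Pnpla5, and the spread between chow libraries limits Fasn, Scd1 and Srebf1.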
